A study of Mus musculus with 6 samples.

Results

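The genes described here carry secretory proteins through their first steps, from entry into the endoplasmic reticulum (ER) and folding there to packing into COPII vesicles, the carriers that leave the ER for the Golgi. They were chosen by gene symbol, with earlier results of these data known. A gene with more than 1 probe set is represented by the one brightest on average across the 6 arrays. The symbols were those starting with Sec11, Sec13, Sec16, Sec22, Sec23, Sec24, Sec31, Sec61, Sec62, Sec63, Pdia, Ssr, Spcs or Fkbp, together with Hspa5, Hsp90b1, Calr, Canx, Dnajb9, Dnajb11, Dnajc3, Herpud1, Xbp1, Atf6, Ero1l and Ero1lb. This gave 58 of the 18193 genes measured, 2 of them (Ero1a and Ero1b) under newer symbols than those of the rule. Sec61g, Sec31b, Fkbp10 and Fkbp6 were not analysed here. All 58 genes had a mean above the background level of 4.60 on the log2 scale, as did 71.3% of all genes. That level is the 95th percentile of the means of 71 olfactory and vomeronasal receptor genes, a set used as a stand-in for absent transcripts.

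The arrays came from 2 groups of intestinal cells separated by fluorescence-activated cell sorting. The CCK-EGFP cells carried green fluorescence and the non-EGFP cells did not, with 3 arrays of each group. Both groups were from adult CCK-EGFP transgenic mice on the Swiss Webster (SW) background, so the cells used for comparison carried the transgene too, and no drug, diet or other exposure is named. Cholecystokinin (Cck) is a peptide hormone of enteroendocrine cells, the hormone-secreting cells of the gut lining, and the series asks how these cells release it in response to fat. The labels do not say which Cck sequences drive EGFP, how many mice were used, or whether animals were pooled or kept apart. The p-values therefore rest on the spread among these arrays, which may be technical. RNA was amplified from picogram amounts before labelling. Values are log2 intensities after RMA normalization, and differences are CCK-EGFP minus non-EGFP cells.

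The sort was checked against marker genes. All 10 of 10 enteroendocrine markers were higher in CCK-EGFP cells, and their mean log2 level was 12.23 to 12.50 on CCK-EGFP arrays and 7.31 to 7.79 on non-EGFP arrays. Enterocyte markers averaged 12.41 to 13.11 on CCK-EGFP arrays, highest on replicate 3, and 13.46 to 13.56 on non-EGFP arrays, and 4 of 11 were lower in CCK-EGFP cells. Goblet cell markers averaged 12.27 to 12.61 on CCK-EGFP arrays and 12.72 to 12.94 on non-EGFP arrays, with 1 of 7 higher and 2 lower. B and plasma cell markers averaged 6.25 to 8.68 on CCK-EGFP arrays and 6.81 to 7.91 on non-EGFP arrays, none of 8 passed the threshold, and Tnfrsf17 was below the background level. Paneth cell markers averaged 7.76 to 10.17 on CCK-EGFP arrays and 9.20 to 11.04 on non-EGFP arrays. All 4 had negative differences, with a median of -1.27. None of the 4 passed the threshold, and 3 did with the replicate number as a block. T cell markers averaged 9.50 to 11.76 on CCK-EGFP arrays and 10.29 to 11.63 on non-EGFP arrays, and none of 6 passed. Pancreatic acinar markers averaged 4.90 to 5.18 on CCK-EGFP arrays and 5.50 to 5.59 on non-EGFP arrays, with 1 of 6 lower. Cpa1, Prss2 and Ctrb1 were below the background level, while Cela1 averaged 9.56 on CCK-EGFP arrays and 8.64 on non-EGFP arrays (0.92, limma adjusted p = 0.108). Other secretory cells, among them goblet, Paneth, plasma and acinar cells, also use this machinery, and the part of these cell types in the results below was not tested. In such bulk samples a change in the share of a cell type and a change in RNA per cell cannot be told apart.

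Proteins bound for secretion enter the ER through the Sec61 channel, lose their signal peptide to signal peptidase, and fold with the help of chaperones, disulfide isomerases and prolyl isomerases. Folded cargo is then gathered at ER exit sites by the COPII coat, in which Sec23 and Sec24 form the inner layer and Sec13 and Sec31 the outer cage. Peptide hormones such as cholecystokinin are made as precursors that take this route before they are stored in granules.

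The genes for entry and folding and the genes for exit moved in opposite directions. Of 33 translocation and folding genes, 14 rose, 0 fell and 19 did not pass the threshold, and the median difference was 0.81. Of 14 COPII coat and Sec22 genes, 8 fell, 0 rose and 6 did not pass, and the median difference was -0.76. Over all 58 genes 16 rose (27.6%) and 9 fell (15.5%), with a median of 0.51. In the same test, limma with Benjamini-Hochberg adjustment over all 18193 genes and a threshold of 0.05, 14.0% of all genes rose and 10.2% fell, and the median of all genes was -0.17. Among the 12975 genes above the background level 18.7% rose and 12.3% fell, with a median of 0.05. The groups did not overlap in 29 of the 58 genes with CCK-EGFP higher, against 21.8% of all genes, and in 12 with CCK-EGFP lower, against 28.1% of all genes. The share of the 58 genes that fell is thus near the background, while that of the COPII and Sec22 genes is 57.1%. The split into entry and exit genes was made with these results known.

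**Figure D1:**
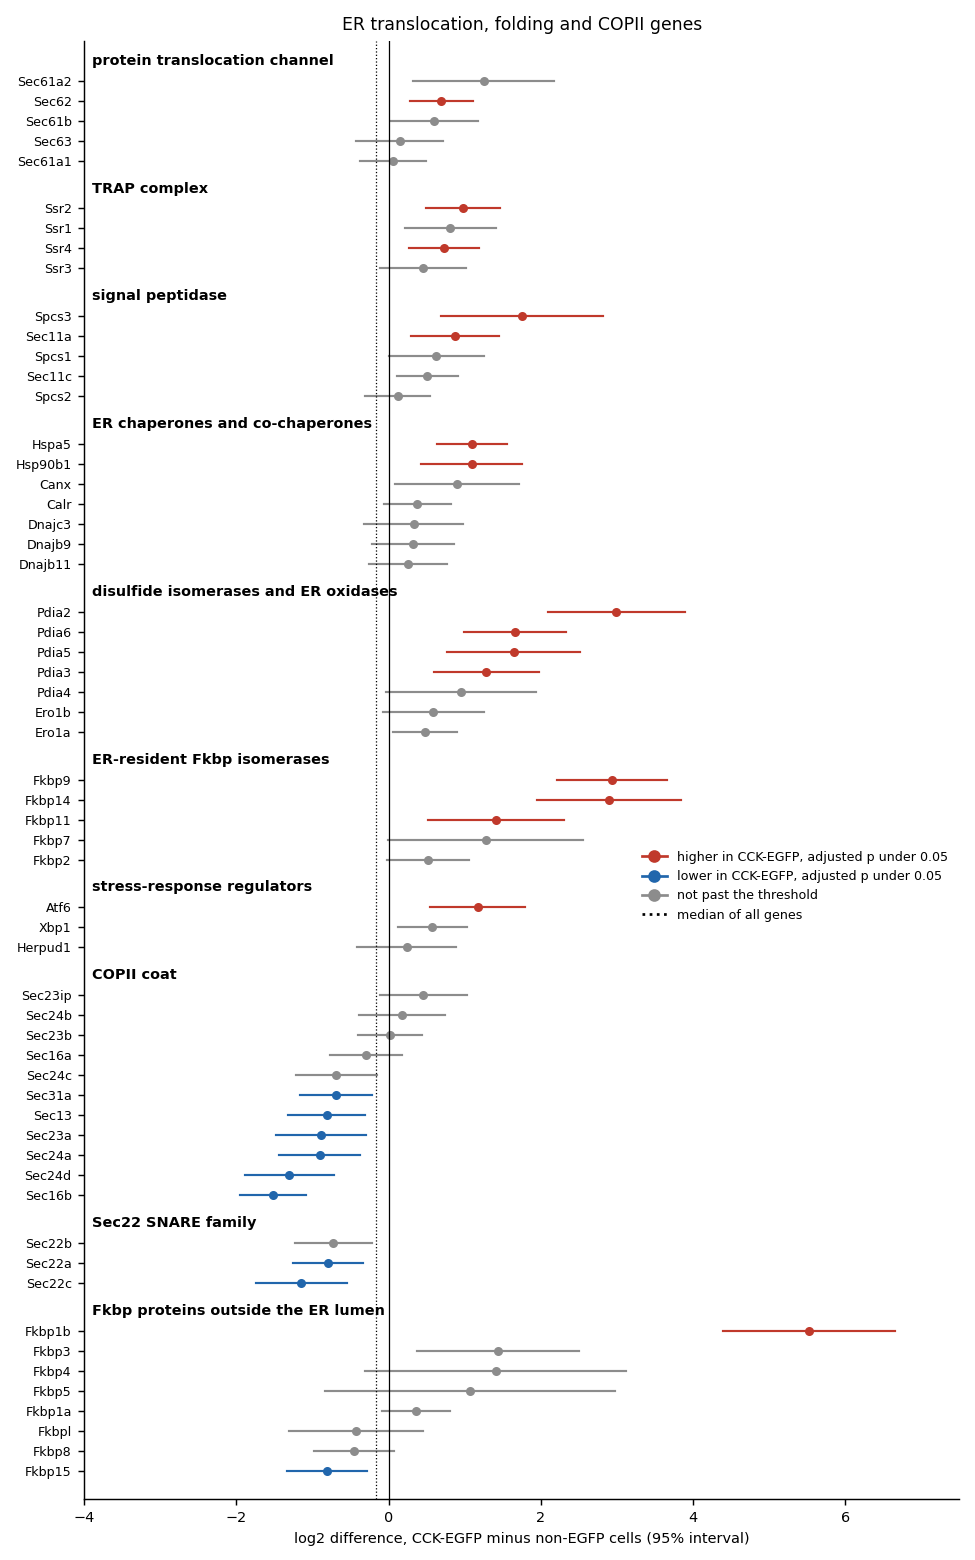
Log2 difference of each of the 58 genes, CCK-EGFP minus non-EGFP cells, with its 95% interval from limma, grouped by role; red is higher and blue lower in CCK-EGFP cells at an adjusted p under 0.05, and the dotted line is the median of all genes. The translocation and folding genes lie to the right of 0 and most COPII and Sec22 genes to the left.

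The opposite movement was visible on each array. After taking off each gene's mean over the 6 arrays, the 33 translocation and folding genes had medians of 0.42, 0.38 and 0.35 on the CCK-EGFP arrays, against -0.56, -0.45 and -0.25 on the non-EGFP arrays. The 14 COPII and Sec22 genes had medians of -0.49, -0.37 and -0.13 on the CCK-EGFP arrays, against 0.36, 0.31 and 0.39 on the non-EGFP arrays. Both sets separated the groups without overlap, and in both the gap was narrowest at replicate 3. CCK-EGFP replicate 3 was the highest of the CCK-EGFP arrays in enterocyte (13.11), Paneth (10.17), T cell (11.76) and B and plasma cell (8.68) markers. The part of these cells in the narrower gap was not tested. Scaling whole arrays adds 1 constant per array to every gene. Such a constant leaves the distance between the sets as it is and moves where each lies relative to 0. The hybridisation controls below differ unevenly, from -0.72 for bioB to -0.07 for cre. The part of an uneven offset in the distance between the sets was not tested. A second quantile normalization, which is not 1 constant per array, gave 14 of the 33 higher and 6 of the 14 lower. Over all genes it gave 2348 higher and 2019 lower. With arrays centred on their medians the translocation and folding genes had a median difference of 0.44 with 9 higher, and the COPII and Sec22 genes one of -1.13 with 10 lower. Under the same centring the median of all genes was -0.54, 11.1% of them were higher and 28.1% lower. The bacterial hybridisation controls bioB and bioC, spiked in at fixed amounts, together read 11.22, 11.11 and 11.33 on the CCK-EGFP arrays, against 11.98, 11.84 and 11.77 on the non-EGFP arrays. Scaling to these controls, an alternative chosen after seeing the data, moved the median of all genes to 0.47 and that of the COPII and Sec22 genes to -0.12, with 1 lower and 1 higher of the 14, while 29.2% of all genes were higher and 2.68% lower. Under it 32 of the 33 translocation and folding genes were higher, with a median of 1.45. These values rest on the choice of bioB (group difference -0.72) and bioC (-0.54). The other hybridisation controls, bioD (-0.28) and cre (-0.07), differed less between the groups and were not used for the scaling.

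**Figure D2:**
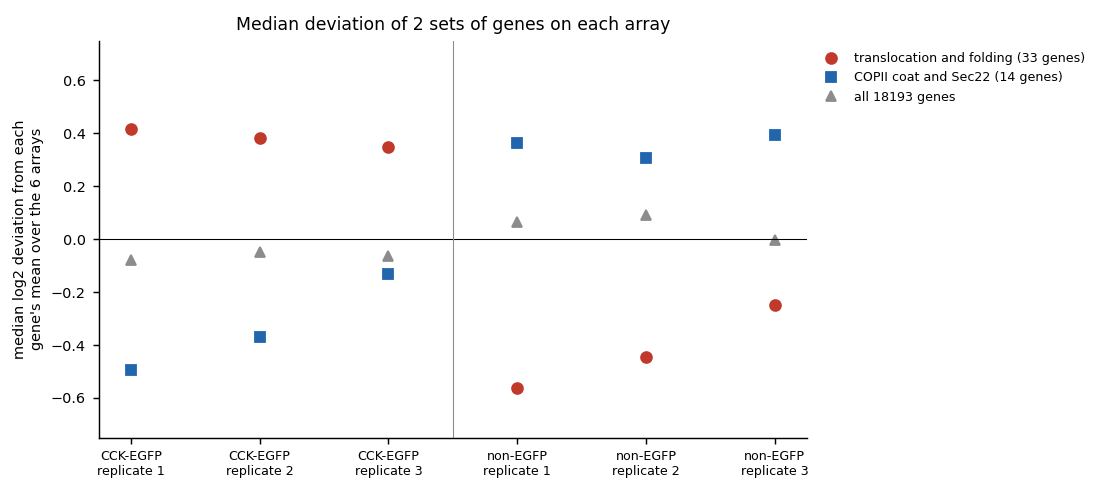
Median log2 deviation from each gene's own mean over the 6 arrays (vertical axis) on every array (horizontal axis), for the 33 translocation and folding genes (circles), the 14 COPII coat and Sec22 genes (squares) and all 18193 genes (triangles). The circles are above 0 on the 3 CCK-EGFP arrays and below 0 on the 3 non-EGFP arrays, and the squares the reverse.

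The counts depended on single arrays. Leaving out CCK-EGFP replicate 1 left 7 of the 58 genes higher and 1 lower, and leaving out CCK-EGFP replicate 2 left 5 higher and 1 lower. Without CCK-EGFP replicate 3 there were 10 higher and 6 lower, and without non-EGFP replicate 1 there were 11 and 4. Without non-EGFP replicate 2 there were 9 and 2, and without non-EGFP replicate 3 there were 16 and 4. In the same order, all 18193 genes gave 1468, 1365, 2154, 2070, 1992 and 2486 higher. They gave 666, 505, 1384, 1021, 880 and 1962 lower. Across the omissions 4 to 13 of the 33 translocation and folding genes were higher and 0 lower. Of the 14 COPII and Sec22 genes 1 to 6 were lower and 0 higher. Of the 25 genes called, 6 passed under each of these 6 omissions: Pdia2, Pdia6, Fkbp9, Fkbp14, Fkbp1b and Sec16b. With the replicate number as a block, 13 were higher and 5 lower, beside 12.9% and 8.43% of all genes.

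At the channel, 1 of 5 genes rose and none fell, with a median difference of 0.60. Sec62, which works beside the channel in taking up small and finished precursors, had log2 values of 12.89, 12.70 and 12.65 in CCK-EGFP cells, against 12.11, 12.04 and 12.01 in non-EGFP cells. These do not overlap, and the difference was 0.69 ± 0.17 (SE, n = 3 each, limma adjusted p = 0.0329), though leaving out any 1 array ended the call (up to 0.119), as did the replicate block (0.0601), and its probe sets ran from -0.86 to 2.06. Sec61a1, the pore-forming subunit, read 12.91, 13.00 and 12.85 in CCK-EGFP cells and 12.91, 13.01 and 12.69 in non-EGFP cells, which overlap (0.05, 95% interval -0.38 to 0.48). Its less studied paralog Sec61a2 read 9.05, 8.35 and 8.36 in CCK-EGFP cells, against 7.92, 7.49 and 6.61 in non-EGFP cells, without overlap, and a difference of 1.25 ± 0.39 that did not pass (adjusted p = 0.0600; 0.0344 with the replicate block). Sec61b, a small channel subunit, differed by 0.60 (adjusted p = 0.112) and Sec63, which couples the channel to the luminal chaperone Hspa5, by 0.14 (adjusted p = 0.661).

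The TRAP complex, which binds the channel and helps some signal peptides to insert, had 2 of 4 subunit genes higher, with a median of 0.77. Ssr2 read 11.17, 11.27 and 11.08 in CCK-EGFP cells, against 9.94, 10.21 and 10.44 in non-EGFP cells, and rose by 0.98 ± 0.20 (limma adjusted p = 0.0178). Ssr4 read 12.63, 12.52 and 12.24 in CCK-EGFP cells, against 11.84, 11.63 and 11.74 in non-EGFP cells, and rose by 0.73 ± 0.19 (adjusted p = 0.0377; 0.0621 with the replicate block). In both genes each CCK-EGFP array exceeded each non-EGFP array. Ssr1 (0.81, adjusted p = 0.0590) and Ssr3 (0.45, adjusted p = 0.196) did not pass. The Ssr2 call ended without CCK-EGFP replicate 1 or 2 (up to 0.0770), and the Ssr4 call on leaving out any of the 5 arrays besides CCK-EGFP replicate 3 (up to 0.129).

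Of 5 signal peptidase genes 2 rose, with a median of 0.63. Spcs3, an accessory subunit needed for cleavage, read 9.57, 10.11 and 9.94 in CCK-EGFP cells, against 7.13, 8.49 and 8.74 in non-EGFP cells, and rose by 1.75 ± 0.44 (limma adjusted p = 0.0336). Sec11a, a catalytic subunit, read 11.85, 12.04 and 11.50 in CCK-EGFP cells, against 10.80, 10.73 and 11.24 in non-EGFP cells, and rose by 0.87 ± 0.24 (adjusted p = 0.0425; 0.0859 with the replicate block). Neither gene overlapped between the groups. The other catalytic subunit, Sec11c, read 10.83, 10.98 and 10.86 in CCK-EGFP cells, against 10.38, 10.42 and 10.35 in non-EGFP cells, a gap without overlap that did not pass (0.51, adjusted p = 0.0684). Spcs1 (0.63, adjusted p = 0.120) and Spcs2 (0.12, adjusted p = 0.631) are the remaining subunits and did not pass. Another probe set read Spcs2 at 1.25 (limma adjusted p = 0.0357) and another read Spcs1 at -1.03 (0.0488). The Spcs3 call ended without any CCK-EGFP array or without non-EGFP replicate 2 (up to 0.113), and the Sec11a call without replicate 1 or 2 of either group (up to 0.141).

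Of 7 chaperone and co-chaperone genes, 2 rose, both of them major luminal chaperones, and the median difference was 0.38. Hspa5 (BiP), the Hsp70 of the ER lumen, read 13.16, 13.29 and 12.96 in CCK-EGFP cells, against 11.96, 11.95 and 12.23 in non-EGFP cells. It was 2.13-fold higher (1.09 ± 0.19, limma adjusted p = 0.0105). Of the left-out arrays only CCK-EGFP replicate 2 ended the call (0.0529). A minimum log2 difference of 0.5 in limma ended it too (0.0730). The other probe sets of Hspa5 read 1.18 (limma adjusted p = 0.0193) and 0.13 (0.644). Hsp90b1 (Grp94), the Hsp90 of the lumen, read 11.79, 11.85 and 11.53 in CCK-EGFP cells, against 10.18, 10.62 and 11.10 in non-EGFP cells. Its groups did not overlap either, and it was 2.13-fold higher (1.09 ± 0.27, adjusted p = 0.0336; 0.0626 with the replicate block), a call that ended without any array but non-EGFP replicate 3 (up to 0.116). The lectin chaperones that hold glycoproteins were not past the threshold: Canx differed by 0.90 (95% interval 0.09 to 1.72, adjusted p = 0.0975) and Calr by 0.38 (-0.06 to 0.82, adjusted p = 0.168). Calr read 12.87, 12.82 and 12.62 in CCK-EGFP cells and 12.37, 12.26 and 12.55 in non-EGFP cells. Canx read 12.21, 11.82 and 11.98 in CCK-EGFP cells and 10.64, 10.85 and 11.82 in non-EGFP cells, where replicate 3 came up to the CCK-EGFP values. The 3 probe sets of Canx ran from 0.90 to 1.61, the last of these past the threshold (limma adjusted p = 0.0179). The co-chaperones that feed Hspa5, Dnajc3 (0.33), Dnajb9 (0.32) and Dnajb11 (0.26), had differences that turned slightly below 0 with arrays centred on their medians.

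Of 7 genes of disulfide bond formation, 4 rose and none fell, with 6 free of overlap between the groups and a median of 1.28. Pdia2, a disulfide isomerase best known from the pancreas, read 8.08, 7.46 and 8.49 in CCK-EGFP cells, against 5.56, 5.0 and 4.49 in non-EGFP cells. It was 7.96-fold higher (2.99 ± 0.38, limma adjusted p = 0.00331). Pdia6 read 9.24, 9.78 and 9.16 in CCK-EGFP cells, against 7.39, 7.68 and 8.13 in non-EGFP cells, and was 3.16-fold higher (1.66 ± 0.28, adjusted p = 0.00915). Both calls stayed past the threshold under each left-out array. Pdia5 read 9.02, 9.07 and 9.10 in CCK-EGFP cells, against 6.59, 7.79 and 7.87 in non-EGFP cells, and was 3.12-fold higher (1.64 ± 0.36, adjusted p = 0.0222). Pdia3, the isomerase that works with the lectin chaperones, read 11.72, 12.21 and 11.48 in CCK-EGFP cells, against 10.18, 10.47 and 10.92 in non-EGFP cells, and was 2.43-fold higher (1.28 ± 0.29, adjusted p = 0.0234). The Pdia5 call ended without any CCK-EGFP array (up to 0.0789), and the Pdia3 call without replicate 1 or 2 of either group (up to 0.0825). Ero1a and Ero1b, the oxidases that recharge these isomerases, differed by 0.47 (adjusted p = 0.0948) and 0.58 (adjusted p = 0.160). Ero1a read 11.06, 11.16 and 10.94 in CCK-EGFP cells, against 10.68, 10.47 and 10.58 in non-EGFP cells, without overlap. Ero1b, which is known from insulin-producing cells, read 10.69, 10.40 and 10.74 in CCK-EGFP cells and 10.11, 10.44 and 9.53 in non-EGFP cells, which overlap. Pdia4 differed by 0.95 (adjusted p = 0.132).

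**Figure D3:**
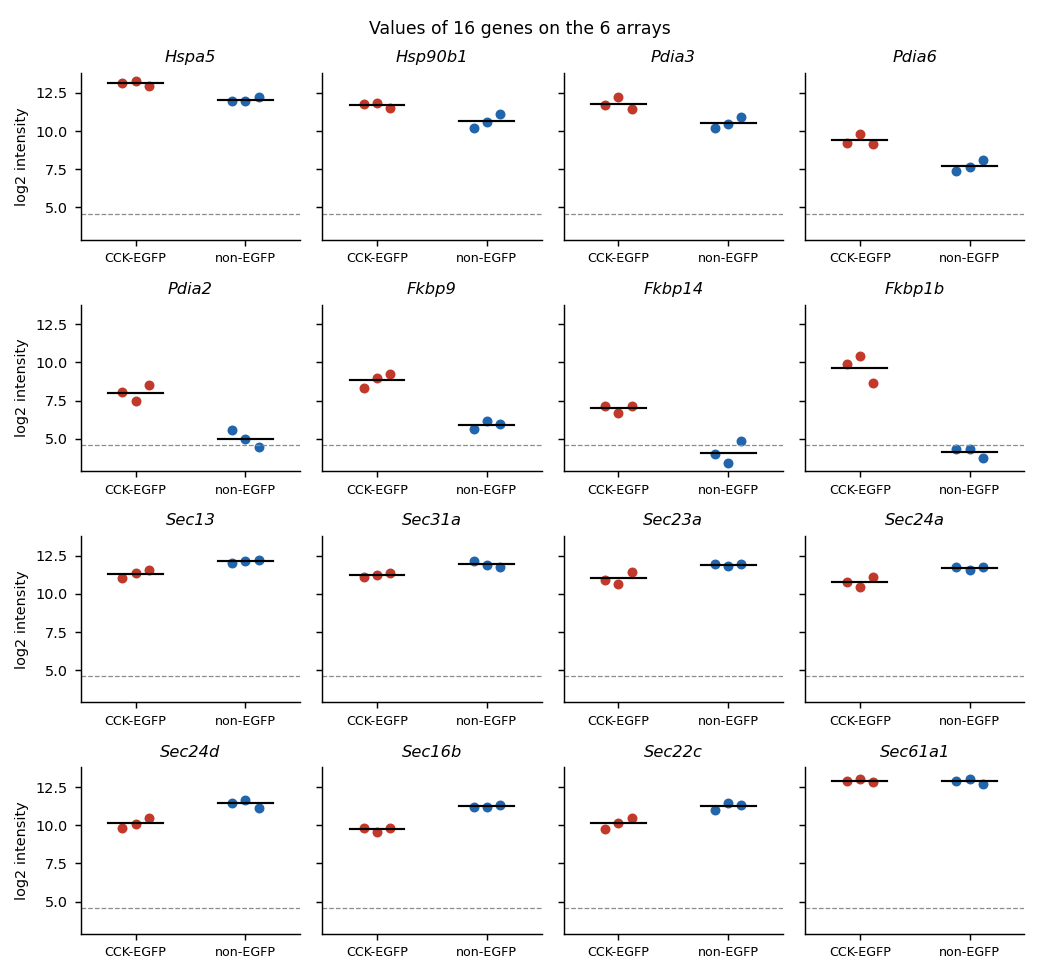
Log2 intensity of 16 of the genes on each array, CCK-EGFP cells (red, left) and non-EGFP cells (blue, right), with a bar at each mean and a dashed line at the background level of 4.60. In non-EGFP cells Fkbp14 and Fkbp1b average under that level and Pdia2 just over it, while Sec61a1 is alike in both groups.

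The ER-resident prolyl isomerases of the Fkbp family, which speed the turning of proline bonds during folding, had 3 of 5 genes higher and a median of 1.41. Fkbp9 read 8.32, 8.99 and 9.28 in CCK-EGFP cells, against 5.62, 6.19 and 5.97 in non-EGFP cells, and was 7.65-fold higher (2.94 ± 0.30, limma adjusted p = 0.00158), with a second probe set at 3.16. Fkbp14 read 7.15, 6.71 and 7.13 in CCK-EGFP cells, against 4.02, 3.40 and 4.89 in non-EGFP cells, with a non-EGFP mean under the background level. The gene was higher by at least 5.27-fold (adjusted p = 0.00443), but its other probe set differed by -0.015. Fkbp11, known from secretory tissues, read 5.37, 6.15 and 5.49 in CCK-EGFP cells, against 3.61, 4.82 and 4.36 in non-EGFP cells. It was at least 2.10-fold higher (adjusted p = 0.0379), its other probe sets ran the other way (-0.26 and -1.05), and the call ended without any array but non-EGFP replicate 2 (up to 0.122). Fkbp7 (1.27, adjusted p = 0.125) and Fkbp2 (0.52, adjusted p = 0.133) did not pass, though neither overlapped between the groups.

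Among the regulators of the ER stress response, 1 of 3 rose. Atf6, a membrane-bound transcription factor released by cleavage when unfolded protein builds up, read 8.05, 8.60 and 8.68 in CCK-EGFP cells, against 6.93, 7.40 and 7.49 in non-EGFP cells. It was 2.25-fold higher (1.17 ± 0.26, limma adjusted p = 0.0231), and the call ended on leaving out replicate 2 of either group, CCK-EGFP replicate 3 or non-EGFP replicate 1 (up to 0.0906). Xbp1, the factor activated by splicing of its mRNA, read 12.28, 12.41 and 12.04 in CCK-EGFP cells, against 11.57, 11.76 and 11.69 in non-EGFP cells, a gap without overlap that did not pass (0.57, adjusted p = 0.0695). The arrays do not separate its spliced from its unspliced form. Herpud1, a stress-induced gene of ER-associated degradation, read 11.72, 12.28 and 11.49 in CCK-EGFP cells and 11.71, 11.77 and 11.29 in non-EGFP cells, which overlap (0.24, adjusted p = 0.521).

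Many chaperone genes carry the ER stress response element, a promoter sequence bound by ATF6 with the factor NF-Y and made of CCAAT, then 9 bases of any kind, then CCACG. It was looked for on both strands in the 250 bases before the start of each gene in RefSeq promoters of GRCm38.p6, which were at hand for 53 of the 58 genes. Of these, 7 (13.2%) held it, against 19 of 14452 measured genes with a promoter (0.131%), the 7 included. They were 5 of 7 chaperone genes and 2 of 7 disulfide genes, and 0 of 11 COPII coat genes. Chaperone genes are named in the rule that chose the genes, so this share describes the list and is no test of enrichment. The elements are shown with 10 bases on each side, as read on the gene's strand, because they mark which folding genes share a known stress element. Capitals are the 5-base ends of the element, and where they read CGTGG and then ATTGG the element lies on the opposite strand. Hsp90b1 has 2, facing opposite ways, and the stretch between them is included.
Hspa5, chr2:34772015-34772053 (+): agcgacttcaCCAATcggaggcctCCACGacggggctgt
Hsp90b1, chr10:86705523-86705666 (-): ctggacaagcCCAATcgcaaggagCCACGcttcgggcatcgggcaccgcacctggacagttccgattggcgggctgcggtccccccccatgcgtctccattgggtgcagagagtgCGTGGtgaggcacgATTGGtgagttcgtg
Pdia6, chr12:17266481-17266519 (+): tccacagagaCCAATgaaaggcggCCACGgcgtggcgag
Canx, chr11:50325790-50325828 (-): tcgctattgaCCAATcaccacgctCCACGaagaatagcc
Calr, chr8:84847065-84847103 (-): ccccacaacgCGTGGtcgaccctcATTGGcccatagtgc
Dnajc3, chr14:118937817-118937855 (+): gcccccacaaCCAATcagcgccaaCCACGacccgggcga
Ero1b, chr13:12565672-12565710 (+): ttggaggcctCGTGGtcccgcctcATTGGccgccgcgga

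The first base of the element lay 65 bases before the start in Hspa5 and 201 before it in Ero1b, with the others between, apart from the farther element of Hsp90b1 at 212. Of these 7 genes, Hspa5, Hsp90b1 and Pdia6 rose and the other 4 did not pass, with a median difference of 0.90. The other 12 measured genes with the element had 1 higher, 1 lower and a median of -0.41. Pdia2, Pdia3, Pdia5, Fkbp9 and Fkbp14 rose and held no such element in this window. A separate short sequence, ACGTG, is not part of the element as defined above, and Canx, Hsp90b1 and Ero1b held the element without it. It was in 52.8% of the 53 genes and 22.5% of measured genes, and in 8 of 11 COPII coat genes. A CCAAT box was in 56.6% of the 53 genes and 39.4% of measured genes. These are matches of letters, not shown sites of binding, and promoters were not matched for base composition.

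At the exit step, 6 of 11 COPII coat genes fell and none rose, with a median difference of -0.70. Sec16b, a scaffold of ER exit sites, read 9.83, 9.53 and 9.82 in CCK-EGFP cells, against 11.22, 11.20 and 11.33 in non-EGFP cells. It was 2.87-fold lower (-1.52 ± 0.18, limma adjusted p = 0.0028) and was the one coat gene still lower when arrays were scaled to the hybridisation controls (-0.88, adjusted p = 0.0166). Its larger paralog Sec16a read 11.52, 11.70 and 11.83 in CCK-EGFP cells and 12.19, 11.93 and 11.81 in non-EGFP cells, which overlap (-0.29, adjusted p = 0.289; 0.35 with the control scaling).

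Sec24d, which like the other Sec24 proteins picks cargo, read 9.85, 10.07 and 10.45 in CCK-EGFP cells, against 11.48, 11.66 and 11.13 in non-EGFP cells, and was 2.47-fold lower (-1.30 ± 0.24, limma adjusted p = 0.0132). Sec24a read 10.78, 10.48 and 11.13 in CCK-EGFP cells, against 11.77, 11.58 and 11.76 in non-EGFP cells (-0.91 ± 0.22, adjusted p = 0.0311). Sec23a, the partner that activates the coat's GTPase, read 10.90, 10.67 and 11.46 in CCK-EGFP cells, against 11.96, 11.81 and 11.94 in non-EGFP cells (-0.89 ± 0.25, adjusted p = 0.0434). In these 3 genes the groups did not overlap, and CCK-EGFP replicate 3 was the nearest to the non-EGFP arrays. The outer cage moved the same way. Sec13 read 11.01, 11.35 and 11.58 in CCK-EGFP cells, against 12.01, 12.15 and 12.21 in non-EGFP cells (-0.81 ± 0.21, adjusted p = 0.0367). Sec31a read 11.08, 11.25 and 11.40 in CCK-EGFP cells, against 12.16, 11.88 and 11.79 in non-EGFP cells (-0.70 ± 0.20, adjusted p = 0.0465). Apart from Sec16b these calls were fragile: that of Sec24d ended without CCK-EGFP replicate 1 or 2 (up to 0.0575), those of Sec24a (0.109), Sec23a (0.139) and Sec13 (0.117) without any array but CCK-EGFP replicate 3, and that of Sec31a without any array (0.150). The replicate block put Sec23a at 0.0555 and Sec31a at 0.0890.

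Not every coat gene fell. Sec23b read 11.00, 11.14 and 10.99 in CCK-EGFP cells and 10.88, 11.14 and 11.05 in non-EGFP cells (0.02, 95% interval -0.40 to 0.44). Sec24b read 9.46, 9.38 and 9.16 in CCK-EGFP cells and 9.17, 8.81 and 9.49 in non-EGFP cells (0.18, adjusted p = 0.583), and both overlap. Sec24c read 10.76, 11.14 and 11.41 in CCK-EGFP cells, against 11.81, 11.69 and 11.87 in non-EGFP cells, without overlap (-0.69, adjusted p = 0.0666). Sec23ip, a Sec23-binding protein of exit sites, differed by 0.46 (adjusted p = 0.194).

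The Sec22 family, membrane proteins of traffic between ER and Golgi of which Sec22b is a SNARE that drives fusion, had 2 of 3 genes lower and a median of -0.80. Sec22c read 9.75, 10.15 and 10.46 in CCK-EGFP cells, against 11.01, 11.44 and 11.35 in non-EGFP cells (-1.15 ± 0.25, limma adjusted p = 0.0212). Sec22a read 9.10, 9.05 and 8.91 in CCK-EGFP cells, against 9.60, 9.99 and 9.86 in non-EGFP cells (-0.80 ± 0.19, adjusted p = 0.0282; 0.0576 with the replicate block). Sec22b read 10.95, 10.68 and 11.05 in CCK-EGFP cells, against 11.87, 11.41 and 11.58 in non-EGFP cells (-0.73 ± 0.21), and its adjusted p of 0.0503 fell just outside the threshold. All 3 separated the groups without overlap. The Sec22c call ended on leaving out replicate 2 of either group or CCK-EGFP replicate 1 (up to 0.0761), and that of Sec22a without any array but non-EGFP replicate 1 (up to 0.0953).

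Unequal change between related genes was read from their log2 ratio on each array, in 8 pairs. Of these, 5 separated the groups without overlap, and each of the 5 had an exact two-sided permutation p of 0.1, the smallest that 3 arrays against 3 allow (0.16 after adjustment over the 8 pairs), so none could pass 0.05. The Sec16b to Sec16a ratio was -1.69, -2.16 and -2.0 in CCK-EGFP cells, against -0.96, -0.74 and -0.48 in non-EGFP cells, a shift of -1.23. The Sec24b to Sec24a ratio was -1.31, -1.11 and -1.97 in CCK-EGFP cells, against -2.61, -2.77 and -2.27 in non-EGFP cells, a shift of 1.09. The Sec23b to Sec23a ratio was 0.10, 0.47 and -0.46 in CCK-EGFP cells, against -1.07, -0.67 and -0.89 in non-EGFP cells, a shift of 0.91. In these 3 pairs each CCK-EGFP array lies on one side of every non-EGFP array, with Sec16b, Sec24a and Sec23a the lower partner of the shift. The Sec24d to Sec24c ratio shifted by -0.62 and that of Sec61a1 to Sec61a2 by -1.20. Sec11c to Sec11a (-0.36, exact p = 0.2), Sec22c to Sec22a (-0.35, exact p = 0.4) and Ero1b to Ero1a (0.11, exact p = 0.8) overlapped between the groups. Another probe set reads Sec24b at -0.67 and Sec61a2 at -0.23, so those ratios rest on the probe set chosen.

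**Figure D4:**
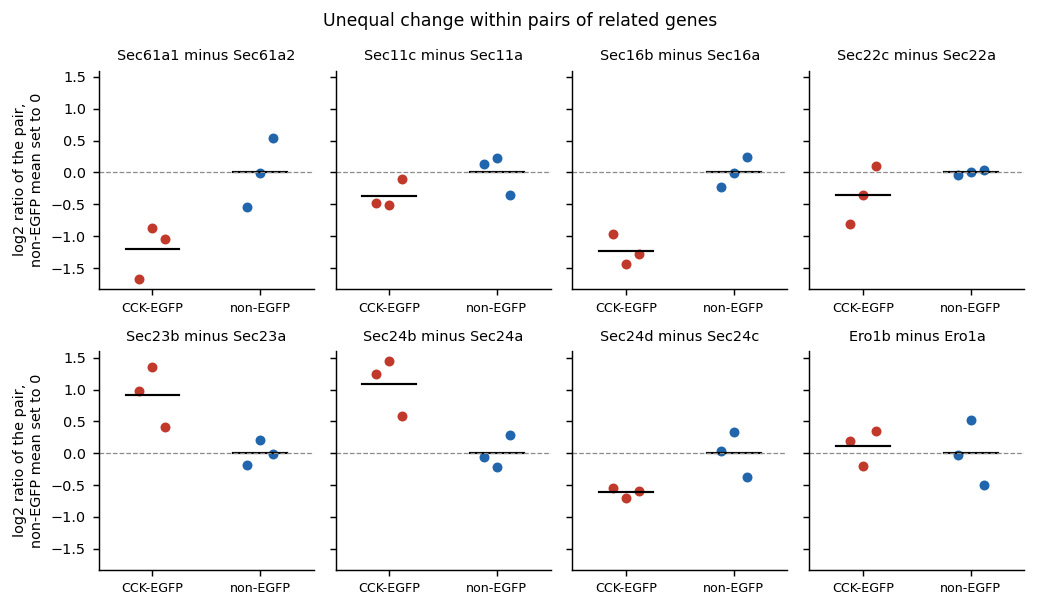
Log2 ratio of 2 related genes on each array (points) with group means (bars), CCK-EGFP cells left and non-EGFP cells right, set so that the non-EGFP mean is 0. In 5 of the 8 pairs the points of the groups do not overlap, with Sec16b to Sec16a shifted by -1.23 and Sec24b to Sec24a by 1.09.

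The Fkbp proteins outside the ER lumen bear a shared name and not a shared place, and they had 1 of 8 higher and 1 lower. Fkbp1b, which binds calcium release channels, had the largest difference of the 58 genes. It read 9.88, 10.45 and 8.65 in CCK-EGFP cells, against 4.33, 4.34 and 3.75 in non-EGFP cells, the last 3 all below background. The gene was higher by at least 33.4-fold (limma adjusted p = 0.00082), from a single probe set, and stayed past the threshold under each left-out array. Its close relative Fkbp1a, the classical target of the drug FK506, read 12.82, 12.47 and 12.48 in CCK-EGFP cells, against 12.19, 12.31 and 12.19 in non-EGFP cells (0.36, adjusted p = 0.194). Fkbp15, linked to actin and endosomes, read 9.14, 9.42 and 9.07 in CCK-EGFP cells, against 10.26, 10.07 and 9.72 in non-EGFP cells, and fell by 0.81 on the log2 scale (adjusted p = 0.0416; 0.0574 with the replicate block), a call that ended without any array but non-EGFP replicate 3 (up to 0.127). Fkbp3 (1.44, adjusted p = 0.0587), the Hsp90 partners Fkbp4 (1.41, adjusted p = 0.183) and Fkbp5 (1.07, adjusted p = 0.334), Fkbp8 (-0.46, adjusted p = 0.163) and Fkbpl (-0.43, adjusted p = 0.399) did not pass.

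Other genes of the early secretory pathway, in 8 lists, were counted in the same fit. In it 14.0% of all genes rose and 10.2% fell, with a median of -0.17. The signal recognition particle and its receptor, which bring ribosomes to the channel, had 2 of 8 genes higher and a median of 0.41. Both were receptor subunits: Srprb (0.99, limma adjusted p = 0.0374) and Srpr (0.94, adjusted p = 0.0268). Of the 3 probe sets of Srprb, 1 had the opposite sign (-0.02). With the replicate block 0 of the 8 passed, and the calls ended without replicate 1 of either group or without CCK-EGFP replicate 2, among others (up to 0.120 and 0.104). Oligosaccharyltransferase, which adds N-linked sugars, had 5 of 12 higher and a median of 0.65. Tusc3, one of its oxidoreductase subunits, read 11.09, 11.21 and 10.17 in CCK-EGFP cells, against 7.51, 8.41 and 7.10 in non-EGFP cells (3.15, adjusted p = 0.00456). Ddost (1.63, adjusted p = 0.0332) and Rpn2 (1.56, adjusted p = 0.00823) rose too, while the catalytic subunit Stt3a (0.21, adjusted p = 0.426) did not pass. The Ddost call ended without any array but non-EGFP replicate 3 (up to 0.113).

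Other folding factors of the ER had 11 of 24 higher, none lower and a median of 0.93, with 7 higher under the replicate block. The disulfide isomerase relative Agr3 read 12.61, 12.87 and 11.76 in CCK-EGFP cells, against 9.01, 4.52 and 7.14 in non-EGFP cells (5.53, limma adjusted p = 0.0147). The prolyl isomerase Ppic read 11.88, 12.17 and 10.83 in CCK-EGFP cells, against 6.41, 7.38 and 7.57 in non-EGFP cells (4.51, adjusted p = 0.00148). Sil1, a nucleotide exchange factor for Hspa5, rose by 2.47 (adjusted p = 0.0127). These separated the groups widely, whereas P4hb, the founding disulfide isomerase, differed by -0.26 (adjusted p = 0.275). The Agr3 call ended without CCK-EGFP replicate 1 or 2 (up to 0.0597), and that of Sil1 without CCK-EGFP replicate 2 (0.0552).

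Of 19 genes of unfolded protein response signalling 2 rose (10.5%, against 14.0% of all genes) and 4 fell (21.1%, against 10.2%). The median was -0.11. Asns, an ATF4 target that makes asparagine, rose by 2.09 (limma adjusted p = 0.0111), while Trib3, another ATF4 target, fell by 1.68 (adjusted p = 0.0153). Creb3l4, a membrane-bound transcription factor gene, fell by 1.70 (adjusted p = 0.0161). Both falls ended without CCK-EGFP replicate 2 (0.0508 for Trib3 and 0.0631 for Creb3l4), and Atf4 itself differed by 0.33 (adjusted p = 0.276). Of the 3 probe sets of Atf4, 2 had the opposite sign, down to -0.44. ER-associated degradation had 0 of 16 higher and 1 lower (6.25%, against 10.2% of all genes), with a median of -0.05. The 1 lower was Edem1 (-1.39, adjusted p = 0.00781), a lectin that sends misfolded glycoproteins to destruction. Scaling to the hybridisation controls turned the medians of both lists to 0.53 and 0.59, near the 0.47 of all genes under that scaling.

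Beyond the coat itself, 6 of 20 COPII regulators and ER exit genes fell and none rose, with a median of -0.42. Scaled to the hybridisation controls they had a median of 0.23 with 2 higher and 1 lower, and with arrays centred on their medians one of -0.79 with 13 lower. For all genes the control scaling gave a median of 0.47, with 29.2% higher and 2.68% lower. Median centring gave all genes a median of -0.54, with 11.1% higher and 28.1% lower. Mia2 (-2.12, limma adjusted p = 0.0280) and Ctage5 (-1.22, adjusted p = 0.0230) are symbols of the platform annotation for exit site proteins that help large cargo leave. Whether they are separate genes was not checked, so the counts of 6 and 20 may hold the same gene under both symbols. Mcfd2 (-1.0, adjusted p = 0.0185) is a cargo receptor subunit for clotting factors. Each of these 3 calls ended without non-EGFP replicate 2, among other arrays (up to 0.0771, 0.0896 and 0.0733). Preb, the exchange factor that starts coat assembly, differed by -0.13 (adjusted p = 0.576). The p24 proteins, which travel with COPII and COPI vesicles as cargo receptors, went the other way, with 5 of 10 higher, none lower and a median of 0.71. Median centring left 2 of the p24 genes higher and 1 lower. Tmed6 read 10.11, 10.51 and 9.36 in CCK-EGFP cells, against 5.36, 4.75 and 5.26 in non-EGFP cells (4.87, adjusted p = 0.000431). Tmed8 rose by 2.84 (adjusted p = 0.000518), with its other probe set at 0.55. Tmed10 rose by 1.12 (adjusted p = 0.0317), a call that ended without any array but non-EGFP replicate 2 (up to 0.114). The COPI coat, which carries material back to the ER, had 0 of 10 past the threshold by limma, with a median of -0.22. An unadjusted limma p under 0.05 was found in 3 of the 10. For all genes it was 7404 of 18193, with a median of -0.17. The groups did not overlap in 6 of the 10 COPI genes with CCK-EGFP lower, against 28.1% of all genes. With CCK-EGFP higher this held for 0 of the 10, against 21.8% of all genes.

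**Figure D5:**
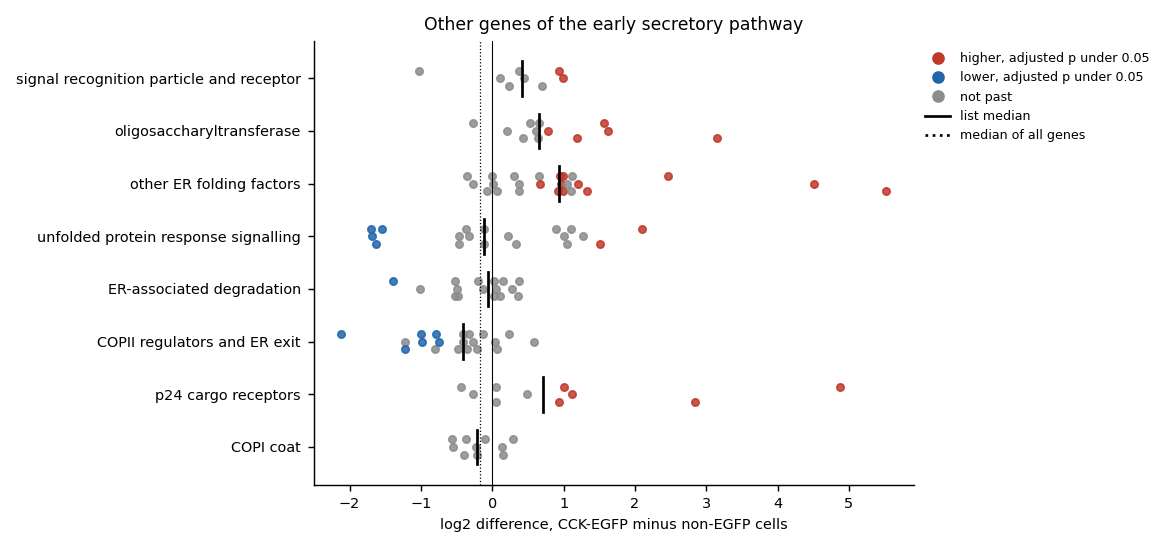
Log2 difference, CCK-EGFP minus non-EGFP cells, of each gene in 8 lists of the early secretory pathway; red is higher and blue lower in CCK-EGFP cells at an adjusted p under 0.05, short bars are list medians and the dotted line is the median of all genes. Folding, sugar transfer and p24 genes reach far to the right (Agr3 at 5.53, Tmed6 at 4.87), and ER exit genes to the left (Mia2 at -2.12).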

How the data were processed

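Total RNA of sorted mouse intestinal cells was amplified and hybridised to 6 arrays of 45101 probe sets. The authors deposited log2 values made with RMA, per the submitters' processing notes, with a version not stated in the sources used here. RMA removes background, brings arrays to a common distribution and combines the probes of a set, which can shrink a broad shift between groups. Array medians were 5.67, 5.66 and 5.72 in CCK-EGFP cells and 5.37, 5.37 and 5.55 in non-EGFP cells. The number of arrays limits precision. No sample column was left unmapped.

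Of the probe sets, 34945 had 1 gene symbol in the platform annotation, which can be old. All 58 genes described matched a mouse RefSeq gene table by gene identifier, and 41 have several probe sets. A two-sided moderated test from limma 3.58.1 (R 4.3.3) was fitted to all 18193 genes, with Benjamini-Hochberg adjustment over all of them and a threshold of 0.05, and the procedure was tested on simulated data. Where 1 group's mean was below the background level, the fold was taken against that level and is a lower bound. Ratios of related genes were compared with exact permutation tests (scipy 1.17.1). Tables and figures used Python 3.11.15, numpy 2.4.6, pandas 2.3.3 and matplotlib 3.10.9.

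The genes and lists were chosen with earlier results of these data known. Values of each array are given for up to 4 genes of each role past the threshold by size of difference, the 2 brightest not past it, and both genes of each pair, with a few further ones added after their values were seen; each list has up to 3 genes past the threshold and up to 2 not past it. The replicate numbers come from the labels, which do not say what they mark. Same-numbered arrays deviated together from their group means (correlations across genes of 0.27, 0.16 and 0.22, against -0.25 to -0.01 for other pairs), so a fit with the number as a block was set beside the main one. Alternatives were other scalings, filters on dim genes, other probe sets, a minimum fold, a trended and robust variance, and leaving out each array.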

Additional observations from a re-analysis of the deposited data

How the results depend on the processing

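The counts were 2540 genes higher and 1851 lower over all genes, and 16 and 9 among the 58 described. With the replicate block the 58 gave 13 higher and 5 lower, and 17 of 25 calls were kept. With arrays scaled to the hybridisation controls, all genes gave 5307 and 488 and the 58 gave 38 and 1. With a minimum log2 difference of 0.5, all genes gave 1487 and 487 and the 58 gave 5 and 1. Median centring gave 2027 genes higher and 5115 lower over all genes, and 11 and 12 among the 58, which turns round their balance. Leaving out 1 array gave 1365 to 2486 genes higher and 505 to 1962 lower over all genes, and 5 to 16 higher and 1 to 6 lower among the 58. Filters on dim genes and the trended, robust variance kept all 25 calls, a second quantile normalization 22, and median centring and the mean of probe sets 20 each.

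Signs turned in genes with small differences or with probe sets that disagree. Median centring gave Sec61a1 -0.32, Sec63 -0.23, Spcs2 -0.25, Dnajb11 -0.12, Dnajb9 -0.052, Dnajc3 -0.043, Herpud1 -0.13, Sec23b -0.35, Sec24b -0.19 and Fkbp1a -0.012. Control scaling gave Sec16a 0.35, Fkbp8 0.19 and Fkbpl 0.21. The mean of probe sets gave Sec61a1 -0.24, Sec24b -0.25 and the Sec11c to Sec11a ratio 0.38. Other probe sets gave Sec61a1 -0.0036, -0.19, -0.48 and -0.84, Sec61a2 -0.23, Sec62 -0.86 and -0.12, Ssr4 -0.074, Sec11a -0.70, Spcs1 -1.03, Ero1a -0.17, Pdia4 -0.48, Fkbp11 -0.26 and -1.05, Fkbp14 -0.015, Fkbp7 -0.55, Sec23ip -0.072, Sec24b -0.67, and Fkbp5 -0.12 and -0.33. Leaving out 1 array gave -0.038 to 0.12 for Sec61a1, -0.023 to 0.32 for Sec63, -0.048 to 0.078 for Sec23b and -0.14 to 0.37 for the Ero1b to Ero1a ratio. The cause of these turns was not tested.

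Of the 15 called genes with several probe sets, 5 (Sec62, Ssr4, Sec11a, Fkbp11 and Fkbp14) have a probe set of the opposite sign. In genes not past the threshold, 5 other probe sets passed with the same sign as the one chosen. They read Sec63 at 1.48, Spcs2 at 1.25, Canx at 1.61, Fkbp1a at 0.80 and Xbp1 at 0.83. With 3 arrays a group, the exact test of a ratio cannot pass 0.05, and genes near the background level in 1 group have only a lower bound for their fold.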

Other observations

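Control probe sets also read differently between the groups, though the polyadenylated controls overlap. The bacterial hybridisation controls are spiked at rising amounts from bioB over bioC and bioD to cre, and the difference between CCK-EGFP and non-EGFP arrays was -0.72 for bioB, -0.54 for bioC, -0.28 for bioD and -0.07 for cre. The polyadenylated controls dap, lys, phe and thr had mean log2 values of 7.29, 8.73 and 9.28 in CCK-EGFP samples, against 9.26, 10.42 and 10.42 in non-EGFP samples. The 3' minus 5' difference of the pyruvate carboxylase probe sets was 2.36, 2.45 and 3.07 in CCK-EGFP samples, against 4.26, 4.38 and 4.26 in non-EGFP samples. The same difference was 3.59, 3.76 and 2.89 for the transferrin receptor in CCK-EGFP samples, against 1.17, 3.04 and 3.05 in non-EGFP samples, which overlap and run the other way on average (0.99). For b-Actin and Gapdh the groups overlapped too, with mean differences of 0.22 and 0.066. The part of these differences in the results was not tested.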
